A study of Mus musculus with 12 samples.

Results

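The transcripts described here come from the Dlk1-Dio3 imprinted locus of the mouse, and they were selected as the rows of a gene count table named Meg3, Mirg, Rian, Dlk1 and Rtl1, which are 5 of its 32285 genes. The selection was made with the values of these genes in the same libraries in view. Their levels and differences are therefore given as a description, with no p-value for any member. Counts of members called in the fit of all genes are printed below, and nothing is read from them. The table holds bulk RNA sequencing of IB10 embryonic stem cells, a mouse line derived from the 129/Ola strain and grown untreated in serum with leukemia inhibitory factor. The study compared 4 genotypes with 3 libraries each: wild type, cells without DHX36, cells without FANCJ, and cells without either helicase. The last 3 are written below as DHX36 KO, FANCJ KO and double KO, where KO stands for knockout. DHX36 and FANCJ are helicases that unwind G-quadruplexes, four-stranded structures formed by runs of guanines. FANCJ is encoded by Brip1. The series title concerns the part played by RNA in shaping where these structures form.

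All 4 genotypes share the same parental line and medium. The sources used here do not say how many clones each knockout represents, nor whether its 3 libraries were grown as separate cultures. Clone and genotype cannot be told apart, and the p-values below measure the spread between these libraries only, which may be technical.

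At this locus the 2 parental chromosomes are used differently. The paternal copy expresses the protein-coding genes Dlk1, Rtl1 and Dio3, and the maternal copy expresses the noncoding RNAs Meg3, Rian and Mirg from 1 strand. A differentially methylated region between Dlk1 and Meg3 sets this choice. In cultured mouse pluripotent cells the maternal RNAs are known to be silenced in some lines and clones.

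Library depth ran from 4284785 to 14721931 counts, and each double KO library was deeper than each wild type library. Against wild type, Dhx36 had a log2 fold change of -2.35 (SE 0.13) in the DHX36 KO and -1.97 (SE 0.12) in the double KO. Brip1 had one of -4.45 (SE 0.45) in the FANCJ KO and -3.93 (SE 0.36) in the double KO. In the single knockout of the other helicase, Dhx36 stood at 0.03 (SE 0.11) and Brip1 at 0.01 (SE 0.26). All 10 embryonic stem cell markers, among them Pou5f1, Sox2 and Nanog, were detected in every genotype. Their summed level was 3864 to 3958 CPM (counts scaled to the size of the library) in wild type, 4195 to 4517 in the DHX36 KO, 3545 to 3684 in the FANCJ KO and 5313 to 5327 in the double KO. Replicate libraries of a genotype differed from each other by more than counting noise, and the chi-square divided by its degrees of freedom lay between 3.87 and 11.3.

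On mouse chromosome 12 (build GRCm38, GENCODE M21), Dlk1 lies at chr12:109452823-109463336 on the plus strand. Meg3 starts 88.2 kb farther along, at chr12:109541001-109571726. Rtl1 is the only member on the minus strand, at chr12:109589193-109600330. Rian follows at chr12:109603940-109661716 and Mirg at chr12:109729764-109749460, both on the plus strand. Between Rian and Mirg lies a further lincRNA on the plus strand, B830012L14Rik, at chr12:109695586-109702587. It was not among the members and was tested, although it shares their locus. The annotation places 118 genes from Dlk1 to Dio3, of which 15 are rows of the count table. None of the 67 annotated miRNA genes and 23 annotated snoRNA genes is a row, so only the host transcripts were measured. Dio3 itself, the thyroid hormone deiodinase at the far end, had 3 to 12 counts per library.

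**Figure D1:**
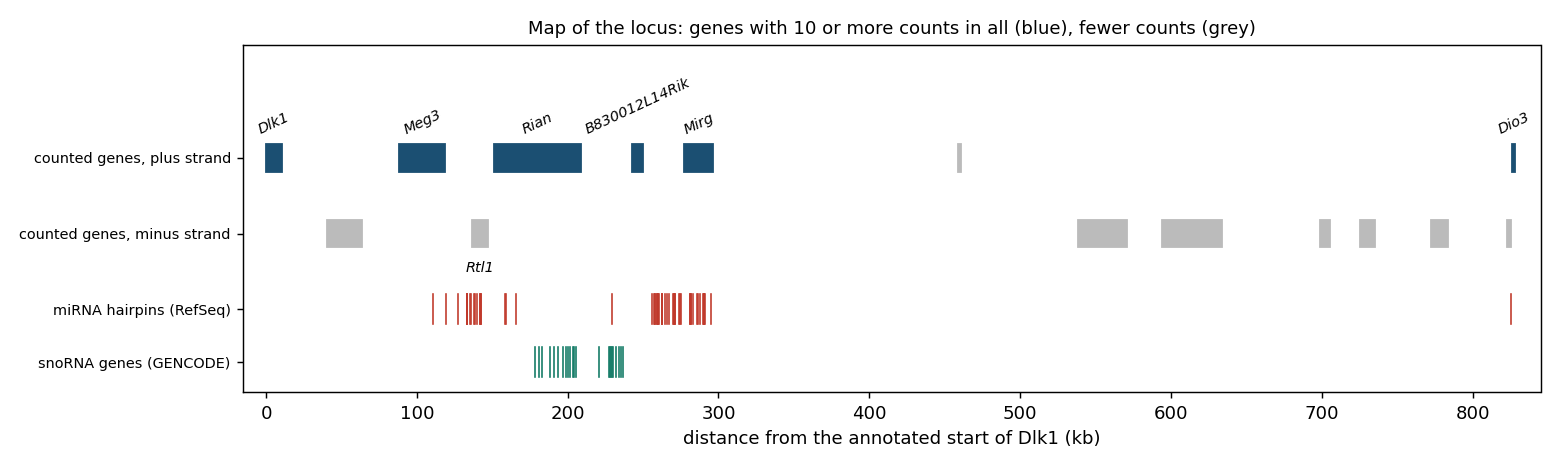
Map of the locus, with distance in kb from the annotated start of Dlk1 on the horizontal axis and genes, RefSeq miRNA hairpins and snoRNA genes in separate rows. Blue boxes are genes with at least 10 counts summed over the 12 libraries and grey boxes are genes with fewer. Meg3, Rian, B830012L14Rik and Mirg follow each other on the plus strand. The snoRNA genes and the miRNA hairpins lie in and between them, except Mir1247, which lies beside Dio3 on the minus strand.

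Meg3, a long noncoding RNA of the maternal copy that is retained largely in the nucleus and binds Polycomb proteins, differed most among the members between the DHX36 KO and wild type. Its level was 205, 179 and 187 CPM in the wild type libraries and 52.3, 46.7 and 57.5 CPM in the DHX36 KO libraries. The FANCJ KO libraries had 126, 91.6 and 124 CPM, and the double KO libraries had 111, 103 and 100.0 CPM. All 9 knockout libraries were below every wild type library, and the DHX36 KO libraries were below all the others. FANCJ and double KO libraries overlapped. The means were 191 ± 13.1 CPM in wild type, 52.2 ± 5.38 in the DHX36 KO, 114 ± 19.1 in the FANCJ KO and 105 ± 5.44 in the double KO (SD, n = 3). On the log2 scale the difference from wild type was -1.86 (SE 0.11) in the DHX36 KO, a level 3.63 times lower. It was -0.75 (SE 0.11) in the FANCJ KO and -0.86 (SE 0.11) in the double KO. The cells lacking both helicases thus held more Meg3 RNA than the cells lacking only DHX36, by 1.00 (SE 0.11). In bulk samples, fewer cells with the RNA and less RNA per cell cannot be told apart.

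**Figure D2:**
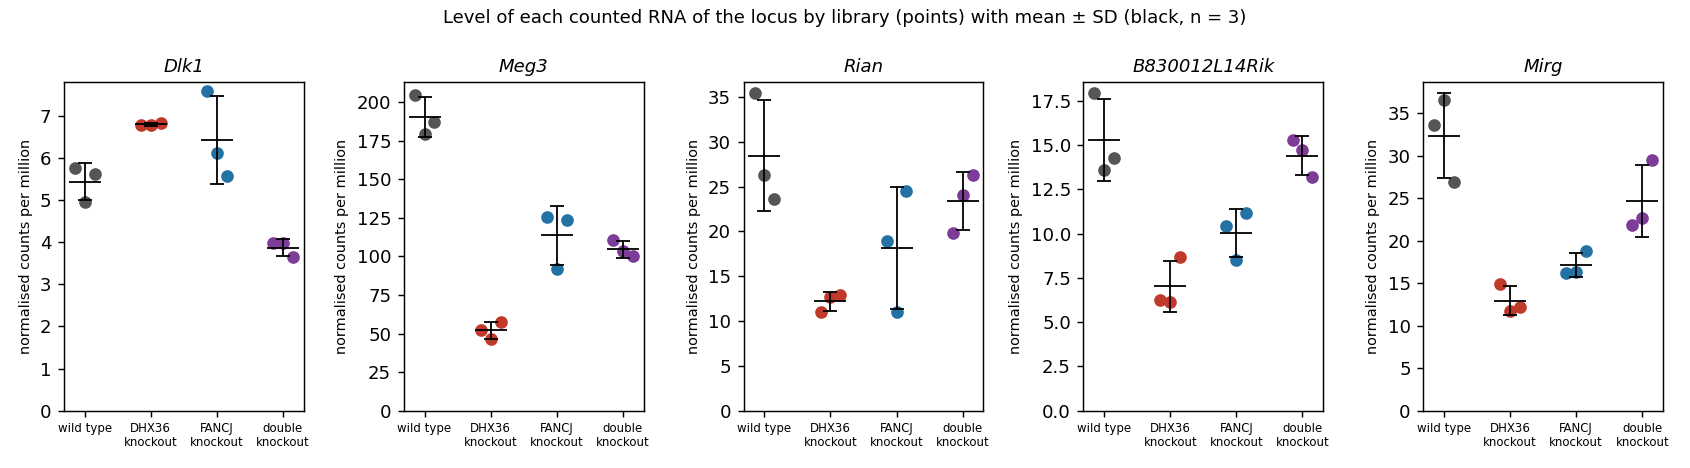
Level of Dlk1, Meg3, Rian, B830012L14Rik and Mirg in CPM, with 1 point for each library and black bars for the mean ± SD of 3 libraries. Each panel has its own vertical axis from 0. The DHX36 KO libraries hold the lowest Meg3 levels, 46.7 to 57.5, while the double KO libraries hold the lowest Dlk1 levels, 3.65 to 3.99.

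Because both deleted helicases act on G-quadruplexes, the RefSeq promoter windows of the members (GRCm38.p6, 250 bases before to 50 bases after an annotated start) were searched for the sequence pattern of such structures. A match needed 4 runs of at least 3 G with 1 to 7 bases of any kind between neighbouring runs, on either strand. RefSeq gave 5 windows, of which 2 belong to Meg3 and 1 each to Dlk1, Rian and Mirg. The pattern was present on the sense strand, the one that reads as the RNA does, in 3 of the 5 windows, and in 10.5% of all 32851 promoter windows of the genome table. On either strand it was present in the same 3 windows and in 18.6% of all windows. It was absent from the window of the upstream Meg3 start and from that of Mirg. The Mirg window surrounds the RefSeq start at 109734981, which lies inside the GENCODE span given above. The GENCODE start of Mirg was not searched. The following 4 plus-strand windows show the contrast between the Meg3 starts, and the matches at Rian and Dlk1, with the matched bases in capitals.
Meg3, upstream start, chr12:109540746-109541045: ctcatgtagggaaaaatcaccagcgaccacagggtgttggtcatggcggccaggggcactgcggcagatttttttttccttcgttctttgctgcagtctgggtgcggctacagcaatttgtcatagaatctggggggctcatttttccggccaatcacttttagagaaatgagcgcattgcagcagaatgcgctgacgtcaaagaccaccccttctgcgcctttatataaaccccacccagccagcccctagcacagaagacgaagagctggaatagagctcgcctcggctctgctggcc
Meg3, internal start, chr12:109545148-109545447: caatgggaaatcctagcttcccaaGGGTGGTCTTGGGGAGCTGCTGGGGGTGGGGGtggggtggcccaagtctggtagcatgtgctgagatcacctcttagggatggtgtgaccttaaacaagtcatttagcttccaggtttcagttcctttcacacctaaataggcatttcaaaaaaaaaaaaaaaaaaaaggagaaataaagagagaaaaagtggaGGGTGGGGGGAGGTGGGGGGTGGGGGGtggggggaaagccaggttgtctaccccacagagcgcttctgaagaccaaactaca
Rian, chr12:109603695-109603994: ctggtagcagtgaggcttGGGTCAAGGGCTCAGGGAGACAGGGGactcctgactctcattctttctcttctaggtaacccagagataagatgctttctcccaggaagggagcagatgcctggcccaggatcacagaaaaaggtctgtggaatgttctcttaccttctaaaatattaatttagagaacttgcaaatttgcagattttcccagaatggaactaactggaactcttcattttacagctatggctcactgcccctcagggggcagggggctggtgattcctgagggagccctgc
Dlk1, chr12:109452573-109452872: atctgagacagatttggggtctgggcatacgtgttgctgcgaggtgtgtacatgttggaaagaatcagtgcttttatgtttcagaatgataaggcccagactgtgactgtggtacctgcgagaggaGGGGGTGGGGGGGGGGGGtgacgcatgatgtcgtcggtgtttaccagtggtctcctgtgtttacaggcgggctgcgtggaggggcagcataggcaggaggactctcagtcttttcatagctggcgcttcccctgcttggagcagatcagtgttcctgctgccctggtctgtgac
The internal Meg3 window holds 2 separate matches, the window of Rian 1 and that of Dlk1 1. At Dlk1 a single T interrupts the matched G, so this match exists only because some G of an unbroken run count as bases between runs. With loops of up to 12 bases, 4 of the 5 windows matched on either strand, against 28.7% of all windows. On the sense strand alone 3 matched, against 16.8%. With runs of at least 2 G, 4 matched on either strand, against 77.4%. Within the longest annotated transcripts, the pattern occurred 2 times in Meg3 (14548 bases) and 0 times in Dlk1, Rian, Mirg and Rtl1, while 24.0% of 12759 tested genes have it in theirs. Longer transcripts hold it more often, and among the 353 tested genes with a longest transcript within 1.5 times the length of Meg3 the share was 38.2%. Among all annotated transcripts of each gene, 5 of 11 of Meg3, 1 of 20 of Rian, 1 of 12 of Mirg and 0 of 10 of Dlk1 held a match. A match describes letters only. Neither G-quadruplexes nor methylation were measured in these libraries.

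Rian is the host RNA of a cluster of C/D box snoRNAs, of which 13 are annotated within its span. Its level was 35.4, 26.3 and 23.7 CPM in wild type and 11.0, 12.6 and 12.9 CPM in the DHX36 KO. The FANCJ KO libraries had 18.9, 11.0 and 24.6 CPM and the double KO libraries 19.8, 24.1 and 26.3 CPM. Only the DHX36 KO libraries lay entirely below wild type, and the FANCJ KO libraries were spread from the level of the DHX36 KO to that of wild type. The log2 difference from wild type was -1.22 (SE 0.21) in the DHX36 KO, -0.68 (SE 0.21) in the FANCJ KO and -0.29 (SE 0.19) in the double KO. The FANCJ value was -0.40 without FANCJ KO replicate 2, the library with 11.0 CPM. The double KO value was -0.10 without wild type replicate 1 and -0.18 without double KO replicate 1. Relative to the DHX36 KO, Rian in the double KO was higher by 0.93 (SE 0.20), with every library above.

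Mirg is the host RNA of a dense group of miRNAs, with 14 RefSeq hairpins within its span. Its level was 33.7, 36.6 and 26.9 CPM in wild type, and 14.9, 11.7 and 12.2 CPM in the DHX36 KO. The FANCJ KO libraries had 16.2, 16.4 and 18.8 CPM and the double KO libraries 21.8, 22.7 and 29.6 CPM. Both single knockouts lay below wild type in every library, and the double KO mean lay between them and wild type, with libraries that overlapped wild type. The log2 difference from wild type was -1.33 (SE 0.15) in the DHX36 KO, -0.94 (SE 0.15) in the FANCJ KO and -0.40 (SE 0.14) in the double KO. The double KO was higher than the DHX36 KO by 0.92 (SE 0.15) and higher than the FANCJ KO by 0.53 (SE 0.15). No library overlapped in either comparison.

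The miRNAs of the locus recognise targets mainly through their seed, bases 2 to 8 of the mature strand. RefSeq lists 113 mature miRNA names from Dlk1 to Dio3, with 104 different seeds. Only 9 seeds are shared by at least 2 of these miRNAs. A pair within Mirg that shares a seed is shown with miR-410-3p, which also lies in Mirg, and with miR-127-3p, which is transcribed opposite to Rtl1. Capitals mark the seed, and the sequences are those of RefSeq.
mmu-miR-496a-5p: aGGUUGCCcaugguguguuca
mmu-miR-453: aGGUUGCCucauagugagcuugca
mmu-miR-410-3p: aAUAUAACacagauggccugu
mmu-miR-127-3p: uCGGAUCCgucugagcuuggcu
Mature miRNA levels were not measured here, so the values of Mirg are those of its longer host RNA.

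Dlk1, the paternally expressed member, encodes a transmembrane protein with EGF-like repeats related to the Notch ligands. It was counted only 24 to 74 times per library. Its level was 5.76, 4.95 and 5.62 CPM in wild type and 6.78, 6.79 and 6.84 CPM in the DHX36 KO. The FANCJ KO libraries had 7.60, 6.12 and 5.57 CPM, and the double KO libraries had 3.99, 3.99 and 3.65 CPM. The double KO was below every other library, the DHX36 KO was above every wild type library, and the FANCJ KO overlapped both. The log2 difference from wild type was 0.33 (SE 0.21) in the DHX36 KO, 0.26 (SE 0.21) in the FANCJ KO and -0.48 (SE 0.21) in the double KO. The FANCJ value was 0.13 without FANCJ KO replicate 1. Relative to the DHX36 KO, Dlk1 in the double KO was lower by a log2 difference of -0.81 (SE 0.18). When every library was thinned to the shallowest in 1 random draw, these double KO differences were -0.20 from wild type and -0.46 from the DHX36 KO. The spread between such draws was not measured. Dlk1 was thus opposite in sign to the 3 noncoding members in both single knockouts and between the double and the DHX36 KO, and was lower together with them in the double KO against wild type.

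Rtl1, a protein-coding gene derived from a retrotransposon and needed in the placenta, had 0 counts in all 12 libraries. A count of 0 allows up to 3 counts, which is 0.205 CPM over the wild type libraries and 0.0788 CPM over the double KO libraries. This limit covers counting error only. Rtl1 entered no fit.

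**Figure D3:**
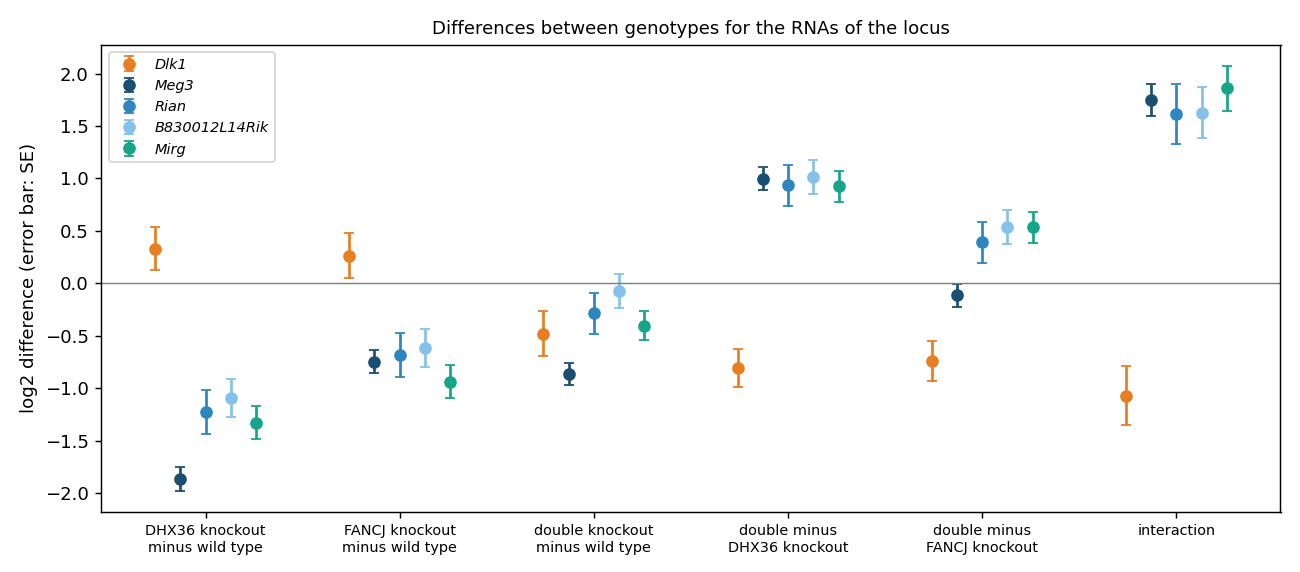
Log2 differences between genotypes for the 4 counted members and for B830012L14Rik, with error bars of 1 SE from the fit over all 12 libraries. The noncoding RNAs lie below 0 in the DHX36 KO, from -1.86 to -1.09, and above 0 where the double KO is set against the DHX36 KO, from 0.92 to 1.01.

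Of the 5 members, 4 passed the filter on low counts and were fitted together with all 12765 genes. The counts that follow describe the members beside all genes, and nothing is read from them because the members were chosen on these contrasts. At an adjusted p under 0.05, 3 of the 4 were lower in the DHX36 KO and the other was not called, where 11.6% of all genes were lower and 12.8% higher. In the FANCJ KO 2 of the 4 were lower and the others not called, beside 0.619% of all genes lower and 1.45% higher. In the double KO 2 of the 4 were lower and the others not called, beside 17.3% lower and 16.6% higher. That last count was 1 when libraries were thinned to the shallowest, and 1 when wild type replicate 1 or 2 or double KO replicate 1 or 2 was left out. The median log2 difference of the 4 was -1.27, -0.71 and -0.44 in these comparisons, beside medians of 0.00, -0.00 and 0.01 over all genes. Libraries that do not overlap wild type, as described for the members above, were common. They occurred for 37.6% of all genes in the DHX36 KO, 18.7% in the FANCJ KO and 45.2% in the double KO.

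The comparisons with the other genotypes share these libraries. Between the double and the DHX36 KO, 3 of the 4 were higher and 1, Dlk1, was lower, beside 8.28% and 11.4% of all genes. In thinned libraries the 3 higher calls were made and Dlk1 was not called. Between the double and the FANCJ KO, 1 of the 4 was higher and 1 lower, beside 18.3% and 18.5% of all genes. That total of 2 became 1 in thinned libraries and without double KO replicate 3, and 3 without FANCJ KO replicate 3. The interaction is the effect of FANCJ loss in cells lacking DHX36 minus its effect in cells with DHX36. It was 1.75 (SE 0.15) for Meg3, 1.61 (SE 0.29) for Rian, 1.86 (SE 0.21) for Mirg and -1.07 (SE 0.28) for Dlk1. By the same rule 3 members were called higher and Dlk1 lower, beside 2.73% and 6.06% of all genes, and in thinned libraries the call of Dlk1 was again lost. For Meg3 and Mirg, FANCJ loss thus went with lower RNA in every library where DHX36 was present and with higher RNA in every library where it was absent. For Rian the FANCJ KO and wild type libraries overlapped. Double KO libraries did not overlap those of the DHX36 KO for 36.9% of all genes, and those of the FANCJ KO for 48.7%.

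B830012L14Rik, the uncharacterised lincRNA between Rian and Mirg, was not itself one of the members. It shares their locus and libraries, so its p-values are not independent of the choice made on these contrasts. Like the noncoding members it was lowest in the DHX36 KO, but unlike Meg3 it was near the wild type level in the double KO. Its level was 17.9, 13.6 and 14.3 CPM in wild type and 6.23, 6.16 and 8.69 CPM in the DHX36 KO. The FANCJ KO libraries had 10.4, 8.51 and 11.1 CPM and the double KO libraries had 15.3, 14.8 and 13.2 CPM. Both single knockouts lay below wild type in every library and the double KO overlapped wild type. In edgeR's quasi-likelihood test it fell by 1.09 on the log2 scale in the DHX36 KO (SE 0.18, adjusted p 0.000118). The FANCJ KO value was -0.61 (SE 0.18, adjusted p 0.0844 in the same edgeR fit) and the double KO value -0.08 (SE 0.16, adjusted p 0.752). It rose by 1.01 in the double relative to the DHX36 KO (SE 0.16, edgeR adjusted p 0.000126), and the interaction was 1.63 (SE 0.24, adjusted p 0.000145). The rise of 0.54 over the FANCJ KO (edgeR adjusted p 0.0131) had an adjusted p of 0.13 in thinned libraries and 0.0868 without FANCJ KO replicate 2.

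The protein-coding neighbours were tested as well. Begain, on the Dlk1 side, and Dio3, at the other end of the locus, were not called in any comparison. At its few counts Dio3 had a log2 difference from wild type of -0.80 (SE 0.61) in the FANCJ KO and -1.25 (SE 0.57, edgeR adjusted p 0.0973) in the double KO, with libraries that overlapped. On the Dio3 side, within 500 kb, the phosphatase subunit Ppp2r5c had a log2 interaction of 0.48 (edgeR adjusted p 0.0294), which was lost in 6 of the 12 fits that left out 1 library. Dync1h1, a dynein heavy chain gene, rose by 0.42 in the double relative to the FANCJ KO (edgeR adjusted p 0.00845), a call that was lost without FANCJ KO replicate 2 (adjusted p 0.0665). In that comparison Meg3 differed by -0.11 and Rian by 0.39. The chaperone gene Hsp90aa1 had a log2 interaction of 0.53 (edgeR adjusted p 0.00223). Against wild type it was at -0.21 in the DHX36 KO and -0.30 in the FANCJ KO (edgeR adjusted p 0.0419 and 0.0413). In the double KO it was at 0.02 (edgeR adjusted p 0.847). Relative to the DHX36 KO and the FANCJ KO the double KO was higher by 0.24 and 0.32 (edgeR adjusted p 0.0296 and 0.00206).

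The noncoding RNAs were not lower by the same amount. Counts of Rian relative to Meg3, on the log2 scale, averaged -2.74 in wild type, -2.07 in the DHX36 KO, -2.68 in the FANCJ KO and -2.16 in the double KO. The wild type libraries spanned -2.96 to -2.52, the DHX36 KO libraries -2.22 to -1.86 and the double KO libraries -2.47 to -1.92. Both genotypes without DHX36 thus lay above wild type in every library, the double KO only narrowly. The FANCJ KO libraries, at -3.02 to -2.31, overlapped both wild type and the double KO. For Mirg relative to Meg3, the DHX36 KO libraries, at -2.22 to -1.80, lay above the wild type libraries, at -2.78 to -2.28. The double KO libraries, at -2.33 to -1.75, and the FANCJ KO libraries, at -2.93 to -2.47, overlapped wild type. B830012L14Rik relative to Meg3 spanned -3.69 to -3.48 in wild type, -3.02 to -2.70 in the DHX36 KO, -3.56 to -3.39 in the FANCJ KO and -2.91 to -2.80 in the double KO. In both genotypes without DHX36, Meg3 was therefore the most reduced of the 4 RNAs relative to wild type. As a share of the counts of the members, Meg3 was 74.2% ± 2.33 in wild type, 61.9% ± 2.14 in the DHX36 KO, 73.2% ± 1.47 in the FANCJ KO and 66.8% ± 4.05 in the double KO (SD, n = 3). The share of Dlk1 was 2.12% ± 0.164, 8.12% ± 0.551, 4.21% ± 0.870 and 2.48% ± 0.163 in the same order. These ratios use counts within a library, so the scaling between libraries does not enter them.

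**Figure D4:**
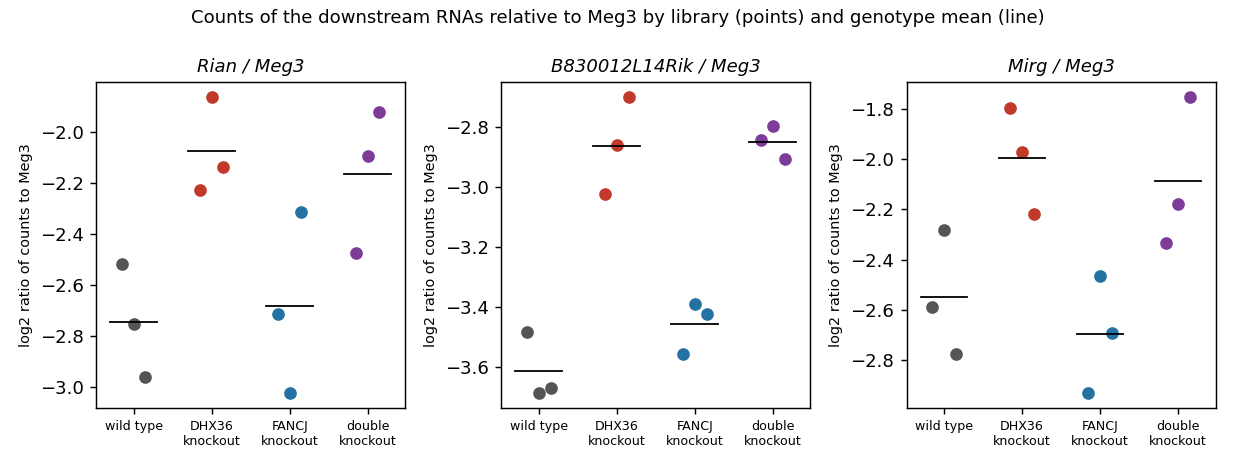
Log2 ratio of the counts of Rian, B830012L14Rik and Mirg to those of Meg3 in each library, with a line at the mean of each genotype (n = 3). For B830012L14Rik the genotypes without DHX36 lie at -3.02 to -2.70, above the wild type and FANCJ KO libraries at -3.69 to -3.39.

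Other genes were ranked by how closely their log2 CPM followed that of Meg3 over the 12 libraries, among 5603 genes outside the locus with a mean of at least 20 CPM. Libraries of a genotype lie close together, so these coefficients describe the order of the genotypes and carry no p. The most alike were Trim2, an E3 ubiquitin ligase, at a Pearson r of 0.96, the proteasome activator Psme4 at 0.93, the mitochondrial serine transporter Sfxn1 at 0.92, Sh3pxd2a at 0.91 and Gstm2 at 0.90. Trim2 averaged 48.2 ± 5.80 CPM in wild type, 22.5 ± 1.32 in the DHX36 KO, 34.5 ± 5.77 in the FANCJ KO and 32.3 ± 2.56 in the double KO (SD, n = 3). The most opposite were H2afj at -0.95, Kif1c at -0.94 and Copg1 at -0.94. For Rian the closest was Nop56, a core protein of the C/D box snoRNA particle, at 0.94, followed by Lage3 at 0.89 and Trim2 at 0.88. For Mirg the closest were Ppp1r10 at 0.95, Nr0b1 at 0.94 and Gart at 0.91.

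Markers of the rare 2-cell-like state of embryonic stem cell cultures, 8 genes such as Zscan4d, had a higher summed level in every knockout library than in wild type. The sum was 51.8 to 60.0 CPM in wild type, 163 to 168 in the DHX36 KO, 85.4 to 98.7 in the FANCJ KO and 89.4 to 100.0 in the double KO. None of them was at 0 in any genotype. Of the 7 tested, 5 rose in the DHX36 KO, 3 in the FANCJ KO and 4 in the double KO, and 6 fell in the double relative to the DHX36 KO. Between the double and the FANCJ KO, 2 rose and 2 fell. Among all genes, 12.8% rose in the DHX36 KO, 1.45% in the FANCJ KO and 16.6% in the double KO. From the DHX36 KO to the double KO 11.4% fell. Between the double and the FANCJ KO 18.3% rose and 18.5% fell. Zscan4d rose by 1.63 on the log2 scale in the DHX36 KO (SE 0.14, edgeR adjusted p 2.9e-08). Several of these genes have near-identical copies among which reads may be split. Markers of other cell types moved between genotypes as well. The 11 trophoblast markers summed to 898 to 1061 CPM in wild type, 564 to 634 in the DHX36 KO, 1104 to 1160 in the FANCJ KO and 412 to 446 in the double KO. Their sum was thus lower in both genotypes without DHX36 and higher in the FANCJ KO. Single trophoblast markers went both ways. Of 10 tested, 2 rose and 4 fell in the DHX36 KO, and 5 rose and 4 fell in the double KO. In the FANCJ KO 2 rose and 0 fell. The 7 mesendoderm markers summed to 32.5 to 36.5, 56.9 to 67.7, 25.1 to 30.5 and 36.5 to 39.3 CPM, highest in the DHX36 KO. The order of the sums here and below is wild type, DHX36 KO, FANCJ KO and double KO. Of 4 tested mesendoderm markers, 2 rose and 0 fell in the DHX36 KO, and 0 rose and 1 fell in the FANCJ KO. In the double KO 1 rose and 1 fell. The 12 fibroblast markers summed to 237 to 264, 235 to 258, 249 to 278 and 179 to 184 CPM, lowest in the double KO. Of 7 tested, 1 rose and 1 fell in the DHX36 KO, and 1 rose and 3 fell in the double KO. In the FANCJ KO 0 were called. The 12 primitive endoderm markers summed to 421 to 545, 461 to 489, 597 to 620 and 412 to 472 CPM, highest in the FANCJ KO. Of 11 tested, 6 rose and 0 fell in the FANCJ KO. In the DHX36 KO 3 rose and 1 fell, and in the double KO 5 rose and 2 fell. The 8 neuroectoderm markers summed to 177 to 190, 195 to 202, 177 to 194 and 142 to 157 CPM, lowest in the double KO. Their sum was highest in the DHX36 KO, yet of 6 tested 1 rose and 4 fell there. In the FANCJ KO 0 were called, and in the double KO 0 rose and 5 fell. Of all genes, 11.6% fell in the DHX36 KO, 0.619% in the FANCJ KO and 17.3% in the double KO. Elf5, Gsc, Mesp1 and Neurog2 were at 0 in all wild type libraries, and Mesp1 and Neurog2 also in all FANCJ KO libraries. The part of these cell states in the levels of the locus was not tested.

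Factors that control imprints were examined from a list of 30 genes, covering DNA methylation, its protection and removal, and the Polycomb complex that Meg3 binds. Of these, 5 rose and 3 fell in the DHX36 KO, 1 was called in the FANCJ KO, where it fell, and 12 were called in the double KO, where they rose. The median of the list was 0.06, -0.05 and 0.28 in that order. Among all genes, 12.8% rose and 11.6% fell in the DHX36 KO, and 1.45% and 0.619% in the FANCJ KO. In the double KO 16.6% rose and 17.3% fell. No list was tested against such shares. The de novo methyltransferase gene Dnmt3a rose by 1.51 on the log2 scale in the DHX36 KO (SE 0.09, edgeR adjusted p 7.0e-11) and by 1.47 in the double KO (SE 0.09, adjusted p 2.6e-11). Its value in the FANCJ KO was -0.03 (SE 0.09). Dppa3, a protein that limits maintenance methylation, rose by 1.68 in the DHX36 KO and 1.01 in the double KO and fell by 1.53 in the FANCJ KO (SE 0.13, 0.13 and 0.17, each edgeR adjusted p at most 9.1e-06). The Polycomb genes Ezh2 and Suz12 had their largest rises in different genotypes. Ezh2 rose by 0.70 (SE 0.09, edgeR adjusted p 3.4e-06) in the DHX36 KO, and Suz12 by 0.66 (SE 0.09, edgeR adjusted p 9.2e-06) in the double KO.

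Genes imprinted elsewhere changed in both directions in the DHX36 KO and the double KO, while those called in the FANCJ KO all rose. Among 19 tested maternally expressed genes, 3 rose and 4 fell in the DHX36 KO, 1 was called in the FANCJ KO, where it rose, and 5 rose and 8 fell in the double KO. Among 25 tested paternally expressed genes, 1 rose and 9 fell in the DHX36 KO, 5 were called in the FANCJ KO, where they rose, and 4 rose and 8 fell in the double KO. Of all genes, 12.8% rose and 11.6% fell in the DHX36 KO, and 1.45% and 0.619% in the FANCJ KO. In the double KO the shares were 16.6% and 17.3%. The list medians were -0.11, 0.20 and -0.19 for the maternal and -0.06, 0.22 and -0.25 for the paternal genes, in the order DHX36 KO, FANCJ KO and double KO. H19, a maternally expressed noncoding RNA of another locus, fell by 2.08 on the log2 scale in the DHX36 KO (SE 0.09, edgeR adjusted p 3.8e-12), as Meg3 was lower there. In contrast to Meg3, H19 rose by 2.08 in the FANCJ KO (SE 0.09, edgeR adjusted p 9.2e-13) and by 1.98 in the double KO (SE 0.09, edgeR adjusted p 7.8e-13).

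Genes that act with the products of the locus gave the following counts. Of 26 tested genes for miRNA and snoRNA processing, 4 rose and 3 fell in the DHX36 KO, 1 was called in the FANCJ KO, where it fell, and 4 rose and 5 fell in the double KO. Over all genes the shares were 12.8% and 11.6% in the DHX36 KO, and 1.45% and 0.619% in the FANCJ KO. In the double KO they were 16.6% and 17.3%. The gene of this list called in the FANCJ KO was Rrp9, whose call was lost in 5 of the 6 fits that left out 1 library. Ago1, an Argonaute that carries miRNAs, rose by 0.71 (SE 0.10, edgeR adjusted p 1.1e-05) in the DHX36 KO and 0.92 (SE 0.09, edgeR adjusted p 1.5e-07) in the double KO. Nop56, named above as the gene most alike to Rian, fell by 0.30 (SE 0.08) in the DHX36 KO. This is given as a value only, because it was picked on the same libraries. Of 24 tested nuclear and snoRNA-host long noncoding RNAs outside the locus, 4 were called in the DHX36 KO, where they fell, and 0 in the FANCJ KO. In the double KO 7 rose and 1 fell against wild type, and 9 rose and 1 fell relative to the DHX36 KO. In that last comparison 8.28% of all genes rose and 11.4% fell. The snoRNA host Snhg3 fell by 1.18 (SE 0.16, edgeR adjusted p 1.4e-05) in the DHX36 KO and rose by 0.83 (SE 0.16, edgeR adjusted p 0.000701) from there to the double KO. Its value in the FANCJ KO was 0.31 (SE 0.16, edgeR adjusted p 0.37), opposite in sign to Meg3. Its interaction of 0.53 was not called (edgeR adjusted p 0.164).

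In the Notch pathway, to which Dlk1 is related, 24 genes were tested. In the double KO 2 rose and 4 fell, beside 16.6% and 17.3% of all genes. The single knockouts had 1 higher call each, in different genes. Among all genes 12.8% rose and 11.6% fell in the DHX36 KO, and 1.45% and 0.619% in the FANCJ KO. The ligand gene Jag2 was called in the DHX36 KO, and the call was lost without wild type replicate 1 or 2. The protease gene Adam10 was called in the FANCJ KO (edgeR adjusted p 0.0371), and the call was lost in each of the 6 fits that left out 1 library. The receptor gene Notch2 fell by 0.61 on the log2 scale in the double KO (SE 0.17, edgeR adjusted p 0.00921), and the other genes that fell there, Dlk2, Maml1 and Ncstn, lost their calls in 4, 3 and 2 of such 6 fits. Of 5 tested genes related to Rtl1, the count was 1 higher and 1 lower in the DHX36 KO, and 1 higher and 3 lower in the double KO. Of the 3, Rtl8a lost its call in 1 and Rtl8b in 3 of the 6 fits that left out 1 library. Peg10, the paternally expressed relative, fell by 1.32 in the double KO (SE 0.16, edgeR adjusted p 1.5e-06), and Ldoc1 rose by 2.71 (SE 0.34, edgeR adjusted p 1.9e-06). Of 6 tested genes of thyroid hormone handling, the field of Dio3, the 1 called in the double KO was the coactivator Ncoa1, which rose by 0.81 (SE 0.15, edgeR adjusted p 0.000234).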

How the data were processed

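Bulk RNA of 12 libraries was sequenced with a multiplexed 3′-end method similar to CEL-Seq2, per the labels' protocols. The authors deposited a table of whole-number counts per gene, not normalized. BWA and the builds GRCm38 and hg38 are listed, per the submitters' processing notes. Whether counts are reads or unique molecules, and how strand and reads matching several genes were handled, is not given in the sources used here. The 92 spike-in rows were left out. Columns were assigned to samples by name. Of 32285 gene IDs, 32158 matched GENCODE M21.

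Counts were fitted with edgeR 4.0.16 (R 4.3.3): TMM scaling, filterByExpr by genotype, 1 quasi-likelihood model of genotype over all 12 libraries, and Benjamini-Hochberg adjustment over 12765 genes at a threshold of 0.05. CPM divides counts by the TMM-scaled totals. The SE is the log2 fold change divided by the square root of F. Likeness used log2 CPM with a prior count of 2. The members, gene lists and tests were chosen with earlier results of these data known. Named were all members, the neighbours within 500 kb, up to 4 called genes per list and comparison by size, and the most alike genes; only some of the list genes are printed. Alternatives were DESeq2 1.42.0, RLE scaling, no filter, fits of the compared genotypes only and a replicate block. Others were thinning to the shallowest library, in 1 random draw, and leaving out each library. The fit was tested on simulated data. Sequences are from the RefSeq tables of GRCm38.p6.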

Additional observations from a re-analysis of the deposited data

Results flagged for a closer look

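For the members the differences between effects below are given as values with no p-value, because the members were chosen on these contrasts. For Meg3 and Mirg, FANCJ loss went with a lower level in every library where DHX36 was present and with a higher level in every library where it was absent, and the log2 effects differed by 1.75 and 1.86. For Mirg, DHX36 loss also went in opposite directions with and without FANCJ, by the same 1.86. For Dlk1, DHX36 loss went with a higher level in every library with FANCJ and a lower level in every library without it, a log2 difference of -1.07. The higher level with FANCJ present was a log2 difference of 0.33 (SE 0.21) and was not called. Libraries also did not overlap for 37.6% of all genes between the DHX36 KO and wild type, and for 48.7% between the double and the FANCJ KO. The shares were 18.7% between the FANCJ KO and wild type and 36.9% between the double and the DHX36 KO.

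For the following genes outside the members the interaction term passed an adjusted p under 0.05 in edgeR's quasi-likelihood test, with log2 values of 1.63 for B830012L14Rik, 0.48 for Ppp2r5c, 0.53 for Hsp90aa1, 0.86 for Dppa3, 0.66 for Suz12, 1.98 for H19 and -1.25 for Zscan4d. Trim2, with an interaction of 1.02, and Nop56, with 0.43, are given as values only, because they were the genes most alike to Meg3 and to Rian over the same libraries. The interaction of Nop56 also lost its call in at least 1 of the fits that left out 1 library.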

How the results depend on the processing

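Over the alternatives that left out no library, 137 of 140 member values moved by less than the spread between replicates, 3 moved by more and 0 changed direction after being called. Over the fits that left out 1 library the numbers were 167 of 168, 1 and 0. In 1 random thinning to the shallowest library, Dlk1 was -0.20 in the double KO against wild type and -0.46 against the DHX36 KO. Its interaction was then -0.87. In the same draw the counts of members called were 1 in the double KO against wild type and 1 against the FANCJ KO. In the double against the DHX36 KO and in the interaction they were 3 in place of 4, without the call of Dlk1. Leaving out 1 library gave an interaction of -1.15 to -0.93 for Dlk1, 1 to 2 members called in the double KO against wild type and 1 to 3 against the FANCJ KO. The number of genes called in the FANCJ KO, 264, was 418 with no expression filter, 159 when only the genotypes compared were fitted, and 110 to 198 when 1 library was left out; the causes were not tested. Same-numbered libraries of different genotypes deviated together with correlations of -0.06 to 0.05, 0 of 18 over 0.1, so the numbers do not pair them. With the replicate number as a block, 3004 genes were called in the DHX36 KO (3113 without it), 233 in the FANCJ KO and 4264 in the double KO, and the counts of members called were the same in all 6 comparisons. Of the 5 genes most alike to Meg3, 3 remained with Spearman's rho, 3 with no minimum level and 2 with a minimum of 50 CPM. Depth limits Dlk1, with 24 to 74 counts per library, and Rtl1, with 0.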
